A study of Mus musculus with 30 samples.

Results

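The response to lipopolysaccharide (LPS) of macrophages that had first been exposed to OSW-1 was measured in 6 of the 30 libraries of the series, taken by their treatment labels. In the first group, bone marrow derived macrophages of C57BL/6 mice received 0.3 µM OSW-1 for 18 h and then 10 ng/mL LPS for 18 h. In the second group, cells of the same strain received 0.3 µM OSW-1 for 18 h and were harvested at time 0 of stimulation, without LPS. Each group held 1 library from each of mouse 1, mouse 2 and mouse 3. The series sequenced polyadenylated RNA and also held macrophages given 1 µM itraconazole, 5 µM 25-hydroxycholesterol (25HC) or no compound, each with and without LPS, and macrophages of mice lacking Ch25h. The design asks how each compound changes expression before and after LPS. Because the unstimulated cells were collected at time 0, LPS and 18 h of further culture cannot be told apart in any value below. The sources used here do not state whether OSW-1 stayed on the cells during LPS, and no vehicle is named.

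LPS is a component of the outer membrane of Gram-negative bacteria. CD14 hands it to the receptor TLR4 with its partner MD-2 on macrophages. TLR4 signals through MyD88 to NF-kB and MAP kinases, which switch on inflammatory cytokine genes, and through TRIF to IRF3 and type I interferon, which switches on interferon-stimulated genes. OSW-1 is a steroidal saponin of the plant Ornithogalum saundersiae that binds oxysterol-binding protein (OSBP). OSBP exchanges cholesterol for phosphatidylinositol 4-phosphate at contacts between the endoplasmic reticulum and the Golgi, and itraconazole and 25HC are also ligands of it.

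The libraries of OSW-1 with LPS held 23946536 to 29630084 counts, and those of OSW-1 alone held 31865240 to 40770004. The counting pattern differed between the groups: 49.83 to 50.28% of the nonzero counts were odd in the libraries of OSW-1 with LPS, whereas every count was even in those of OSW-1 alone. Every count was even in 20 of the 30 libraries. The same pattern separated untreated Ch25h-/- from untreated wild-type libraries, and there 1 of 13173 genes was called without LPS (0.00759%) and 30 with LPS (0.228%). Those groups also differ in genotype and are other libraries, so the part of counting in the OSW-1 calls was not tested by them. Mitochondrial transcripts made up 0.986 to 1.14% of counts in OSW-1 with LPS and 1.64 to 1.72% in OSW-1 alone. Markers of macrophages were present in all 6 libraries, with summed levels of 11400 to 14000 CPM (counts scaled to a common library total) in OSW-1 with LPS and 24800 to 25800 CPM in OSW-1 alone. Ly6g, Cd3e, Cd3g, Cd8a, Ncr1, Nkg7, Pax5, Mcpt8, Mcpt4, Fcer1a, Tpsb2 and Hba-a1, markers of granulocytes, lymphocytes, mast cells and red cells, had no read in any of the 6. Other members of these lists had reads. The mast cell and basophil list summed to 3.45 to 5.95 CPM in OSW-1 with LPS and 0.653 to 0.729 CPM in OSW-1 alone, and Kit, its 1 tested member, rose by 3.43 ± 0.60 on the log2 scale (± SE; adjusted p = 1.83e-05 by edgeR). The erythroid and megakaryocyte list summed to 295 to 584 CPM in OSW-1 with LPS and 112 to 158 CPM in OSW-1 alone, nearly all of it Pf4, a platelet chemokine that rose by 1.56 ± 0.23, and Ppbp rose by 1.48 ± 0.41, on the same scale. In bulk RNA, fewer cells of a type and less RNA per cell cannot be told apart.

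Inflammatory genes that were near silent without LPS were higher with LPS by large factors, and genes of cell division, of resident macrophages and of the lysosome were lower. Of 13173 genes tested, 4578 were higher (34.8%) and 4820 lower (36.6%) with LPS in OSW-1 cells, and 71.3% were called in all, at an adjusted p under 0.05 (edgeR quasi-likelihood test, Benjamini-Hochberg). Changes of at least 2-fold were called for 1665 genes upward (12.6%) and 2835 downward (21.5%). The values of the groups did not overlap for 4931 genes that were higher (37.4%) and 5112 that were lower (38.8%). The median log2 fold change of all tested genes was -0.03. Counts of list members in the OSW-1 response below stand beside the 34.8% higher and 36.6% lower of all tested genes. Below, fold changes are log2 values of LPS over no LPS, with 3 libraries per group. Their standard errors (±) were worked back from the test, as the size of the change over the root of F. The spread was fitted in 1 model of the 10 groups, and ± is approximate, most of all for genes with few reads. Levels are CPM with SD where a mean is given. A response is the fold change within 1 pretreatment, and a difference between responses is the response of OSW-1 cells minus the other. Where the responses of a list are counted as larger or smaller, the sign of this difference decides.

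The promoters of 4 genes that were higher with LPS in OSW-1 cells are shown because they carry short sequences that NF-kB and interferon-activated factors are known to bind. They run from 250 bases before to 50 bases after the start of the gene, 5′ to 3′ on the gene's strand (RefSeq, GRCm38.p6). The capitals mark matches, on either strand, to a form of the NF-kB motif (GGGA and TTTCC with 1 base between them) or of the interferon-stimulated response element, ISRE (GAAA repeated after a gap of 2 bases). Il6, a cytokine, lies on the plus strand at chr5:30012864-30013163, and its match is to the NF-kB motif. Cxcl2, a chemokine for neutrophils, lies on the plus strand at chr5:90903649-90903948, with a match to the NF-kB motif. Gbp5, a guanylate-binding protein, lies on the plus strand at chr3:142496684-142496983, with an ISRE match followed by an NF-kB match. Rsad2, which encodes the antiviral enzyme viperin, lies on the minus strand at chr12:26456403-26456702, with an ISRE match.
Il6: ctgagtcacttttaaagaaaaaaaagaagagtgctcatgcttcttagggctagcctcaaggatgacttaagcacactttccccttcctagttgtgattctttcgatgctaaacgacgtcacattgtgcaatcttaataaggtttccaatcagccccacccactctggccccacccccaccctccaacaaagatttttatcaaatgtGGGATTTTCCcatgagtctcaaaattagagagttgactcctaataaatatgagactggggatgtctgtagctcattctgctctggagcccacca
Cxcl2: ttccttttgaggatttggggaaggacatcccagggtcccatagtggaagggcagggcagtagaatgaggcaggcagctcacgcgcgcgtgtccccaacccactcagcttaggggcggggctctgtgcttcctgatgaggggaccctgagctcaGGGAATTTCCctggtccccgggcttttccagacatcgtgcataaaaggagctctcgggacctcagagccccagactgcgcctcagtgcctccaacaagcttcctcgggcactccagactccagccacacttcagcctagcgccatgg
Gbp5: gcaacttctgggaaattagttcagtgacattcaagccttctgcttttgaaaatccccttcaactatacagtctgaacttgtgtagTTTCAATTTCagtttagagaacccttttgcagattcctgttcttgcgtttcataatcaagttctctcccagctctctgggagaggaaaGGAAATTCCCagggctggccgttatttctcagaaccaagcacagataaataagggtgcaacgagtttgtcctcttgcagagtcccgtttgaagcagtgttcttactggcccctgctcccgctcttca
Rsad2: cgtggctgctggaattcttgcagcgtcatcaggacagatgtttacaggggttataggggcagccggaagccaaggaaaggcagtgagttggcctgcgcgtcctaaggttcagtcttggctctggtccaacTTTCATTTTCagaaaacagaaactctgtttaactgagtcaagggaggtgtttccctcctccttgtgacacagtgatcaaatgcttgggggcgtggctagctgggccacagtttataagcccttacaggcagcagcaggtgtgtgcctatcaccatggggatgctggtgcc

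The NF-kB match began at position -44 from the gene start in Il6, -97 in Cxcl2 and -77 in Gbp5. The ISRE match began at -165 in Gbp5 and at -120 in Rsad2. The same window of Isg15, not shown, held 3 overlapping ISRE matches. Those of Csf2, Il1b, Ptgs2, Ccl22 and Il12b, which were also higher with LPS by large factors, held neither motif. Of 32851 promoters in the table, 0.411% held the NF-kB motif and 3.44% the ISRE. Of the 9671 tested genes with a promoter there, 0.579% and 3.93% had a match in any of their promoters. Among the interferon-stimulated genes, 19 of the 29 with a promoter in the table held the ISRE (65.5%) and 1 the NF-kB motif. Among the inflammatory cytokines 2 of 15 held the NF-kB motif (13.3%), and among the chemokines 3 of 14 (21.4%). These matches describe letters in a window and not bound sites.

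Inflammatory cytokine genes were higher with LPS at 20 of 22 tested members and lower at none. Their median log2 fold change was 5.78, or 5.91 with genes that had no read without LPS set to a lower bound. Il6, which drives acute-phase and B cell responses, had 1820, 1890 and 2990 CPM in OSW-1 with LPS and 0.131, 0.391 and 0 CPM in OSW-1 alone. The change of 13.58 ± 0.69 (adjusted p = 7.86e-15) was the largest of the named genes. Il1b, a mediator of fever that is cleaved by caspase-1, had 9040, 10200 and 14500 CPM in OSW-1 with LPS and 3.96, 3.81 and 3.98 CPM in OSW-1 alone (11.49 ± 0.49, adjusted p = 2.2e-16). Its relative Il1a, an alarm cytokine, had 2460, 2920 and 6280 CPM in OSW-1 with LPS and 0.871, 1.22 and 1.46 CPM in OSW-1 alone (11.69 ± 0.73, adjusted p = 4.2e-13). For these 3 genes the groups were far apart, and mouse 3 had the highest level with LPS. All 3 were named by a rule that required groups without overlap.

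Colony-stimulating factors were among these genes. Csf2, which encodes GM-CSF, a growth factor of myeloid cells, had 406, 459 and 787 CPM in OSW-1 with LPS and 0, 0.293 and 0.056 CPM in OSW-1 alone (12.19 ± 0.63, adjusted p = 9.92e-12). Csf1, the survival factor of macrophages themselves, had 759, 672 and 546 CPM in OSW-1 with LPS and 10.8, 9.91 and 12.2 CPM in OSW-1 alone (5.91 ± 0.36, adjusted p = 2.71e-13). Csf3, the neutrophil growth factor G-CSF, had 9.31, 10.5 and 24.3 CPM in OSW-1 with LPS and no read in OSW-1 alone, and was at least 309-fold higher. Il12a and Il23a, subunits of the T cell polarising cytokines IL-12 and IL-23, likewise had no read without LPS and were at least 817-fold and 516-fold higher. These bounds take 3 reads over the summed libraries of OSW-1 alone as the floor, after halving their even counts, and cover counting error only. Il12b, the subunit that IL-12 and IL-23 share, had 511, 645 and 779 CPM in OSW-1 with LPS and 0.348, 0.293 and 0 CPM in OSW-1 alone (11.45 ± 1.07, adjusted p = 1.72e-09).

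Tnf, an early trigger of inflammation, had 676, 706 and 1070 CPM in OSW-1 with LPS and 68.1, 72.6 and 49.2 CPM in OSW-1 alone (3.69 ± 0.46, adjusted p = 1.16e-07). Inhba, an activin subunit, rose by 9.63 ± 0.53. Il10, the anti-inflammatory cytokine, was low in both groups without overlap, with 3.29, 3.29 and 4.26 CPM in OSW-1 with LPS and 0.174, 0.879 and 0.841 CPM in OSW-1 alone (2.54 ± 0.34, adjusted p = 4e-07). The members that were not called were Tnfsf9, a ligand of T cells, at 0.01 ± 0.36 (adjusted p = 0.98), and Ifnb1, which encodes interferon beta. Ifnb1 was at 0 in the 3 libraries of OSW-1 with LPS and had 0.0436, 0 and 0 CPM in OSW-1 alone, against 0.994 ± 0.749 CPM in untreated cells with LPS.

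Several of these cytokines stood far above the level that LPS gave without OSW-1. Il6 averaged 2230 ± 659 CPM in OSW-1 with LPS and 3.9 ± 2.56 CPM in untreated cells with LPS. Csf2 averaged 551 ± 207 CPM in OSW-1 with LPS and 0.163 ± 0.188 CPM in untreated cells with LPS. Untreated cells without LPS held so few reads of both genes that the fold changes are not set against each other. For Csf1 the responses differed by 4.73 ± 0.45 (adjusted p = 6.88e-09), with a change of 1.18 ± 0.32 in untreated cells. Csf1 also rose after itraconazole by 3.63 ± 0.33 (difference 2.28 ± 0.44) and after 25HC by 2.95 ± 0.32 (difference 2.95 ± 0.44). The Il1a response was larger in OSW-1 cells by 3.74 ± 1.04 (adjusted p = 0.00407), the Il1b response by 1.45 ± 0.51 (adjusted p = 0.0194) and the Tnf response by 1.46 ± 0.61 (adjusted p = 0.0467). These 3 calls depended on single libraries or on the fit. With the animal as a random effect in limma-voom, Il1a (3.12, adjusted p = 0.199) and Il1b (1.04, adjusted p = 0.153) were not called. Il1a was also not called without mouse 3 of untreated cells alone (2.73, adjusted p = 0.114), and Il1b neither with the compared groups only (1.45, adjusted p = 0.0555) nor without mouse 3 of OSW-1 with LPS, mouse 2 of untreated cells with LPS, or mouse 1 or 3 of untreated cells alone (1.06 to 1.25 in these 4 fits). The Tnf call was lost in 9 of the 12 fits that left out 1 library, with values of 1.05 to 1.57; it held without mouse 1 of OSW-1 with LPS and without mouse 1 or 2 of untreated cells with LPS. Over all tested genes, 51.7% had a response that differed from that of untreated cells, 23.4% upward and 28.3% downward. Among the cytokines 10 of 22 differed upward and 3 downward, and the upward count was 16 by DESeq2 and 6 without mouse 3 of untreated cells alone. The median response of the list in untreated cells was 3.31, or 2.30 with genes without reads at their bounds. Il1a rose by 12.4 ± 0.77 after itraconazole and 12.19 ± 0.77 after 25HC, and Il1b by 12.57 ± 0.51 and 14.43 ± 0.56. Neither OSW-1 response was larger than those, and the Il1b response was smaller than after 25HC (-2.94 ± 0.58, adjusted p = 0.000215). Of the 22 cytokine responses, 6 were larger and 1 smaller than after itraconazole (12.4% and 17.8% of all genes). Against 25HC, 4 were larger and 3 smaller (20.5% and 23.4%).

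**Figure D1:**
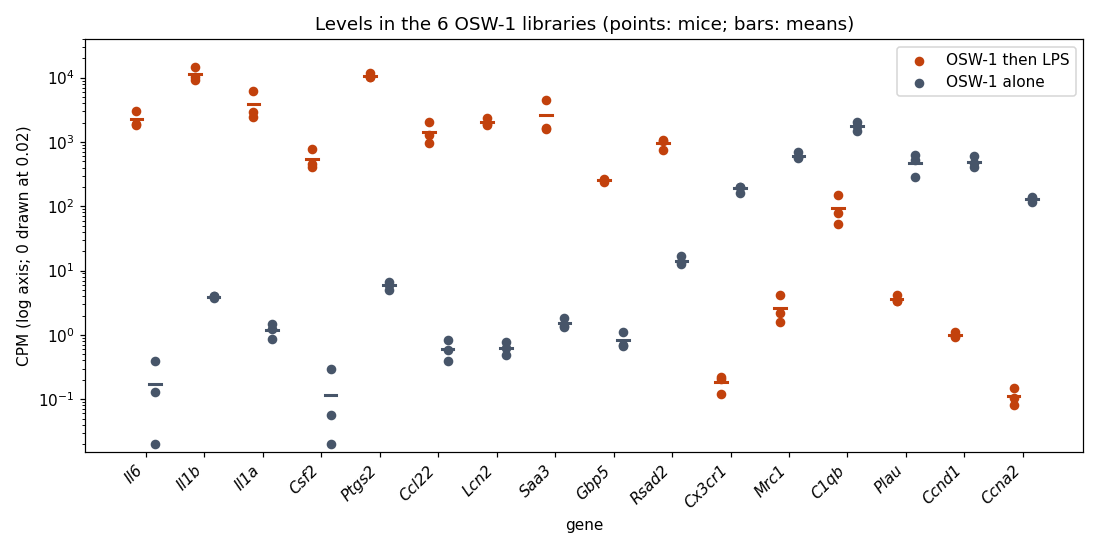
Levels of 16 genes in CPM on a log axis in the 3 libraries of OSW-1 with LPS and the 3 of OSW-1 alone; points are mice, bars are group means and a 0 is drawn at 0.02. The groups did not overlap for any of the 16 genes, but most of these were named by a rule that required it. Over all tested genes the groups did not overlap for 37.4% that were higher and 38.8% that were lower. Il6, Il1a and Saa3 were highest in mouse 3 with LPS (2990, 6280 and 4530 CPM).

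Chemokine genes, which direct leukocyte traffic, included 16 that were higher and 3 that were lower among 22, with a median of 4.42. Ccl22, which attracts CCR4-bearing T cells, had 973, 1270 and 2040 CPM in OSW-1 with LPS and 0.392, 0.586 and 0.841 CPM in OSW-1 alone (11.23 ± 0.58, adjusted p = 9.99e-15). Ccl3, a ligand of CCR1, had 4270, 4490 and 6330 CPM in OSW-1 with LPS and 89.7, 74.0 and 70.4 CPM in OSW-1 alone (6.01 ± 0.43, adjusted p = 5.12e-12). The groups were separate for both genes, but Ccl22 was named by a rule that required it. Mouse 3 was the highest with LPS for both. The neutrophil chemokines Cxcl1 and Cxcl2 averaged 653 ± 59.4 CPM and 4120 ± 886 CPM in OSW-1 with LPS, with changes of 9.22 ± 0.37 and 6.43 ± 0.49. Cxcl5 and Ccl17 had no read in OSW-1 alone and were at least 220-fold and 255-fold higher.

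The chemokine responses lay on both sides of those of untreated cells, with 7 of 22 larger and 6 smaller, shares near those of all tested genes (23.4% and 28.3%). The Ccl22 response was larger in OSW-1 cells by 6.51 ± 1.37 (adjusted p = 0.000318), that of Cxcl1 by 5.96 ± 1.13 (adjusted p = 0.000102) and that of Ccl3 by 4.57 ± 0.52 (adjusted p = 9.85e-08). The Cxcl1 difference was not called without mouse 3 of untreated cells alone (4.50, adjusted p = 0.0518). Cx3cl1, the membrane-bound chemokine fractalkine, had 69.5, 62.2 and 56.4 CPM in OSW-1 with LPS and 1.52, 2.44 and 1.51 CPM in OSW-1 alone (5.10 ± 0.36, adjusted p = 4.82e-12). In untreated cells it fell by 4.52 ± 0.57, and the responses differed by 9.62 ± 0.63 (adjusted p = 1.8e-11). Downward, Cxcl9, an interferon-driven attractant of T cells, averaged 1.79 ± 0.473 CPM in OSW-1 with LPS and 96.4 ± 49.0 CPM in untreated cells with LPS (difference -4.66 ± 1.23, adjusted p = 0.00273). Ccl8, an attractant of monocytes, fell by 1.64 ± 0.61 in OSW-1 cells and rose by 5.44 ± 0.33 in untreated cells. Ccl5, the T cell attractant RANTES, had 2710, 3090 and 4310 CPM in OSW-1 with LPS and 2.7, 2.39 and 2.47 CPM in OSW-1 alone, a response of 10.38 ± 0.29 against 11.28 ± 0.30 in untreated cells (difference -0.90 ± 0.30, adjusted p = 0.0154). Without mouse 1 of untreated cells alone the Ccl5 difference was not called (-0.72, adjusted p = 0.0622).

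Genes of NF-kB and its inhibitors were higher at 14 of 15 members and lower at none (median 2.22). Nfkb1, the precursor of the p50 subunit, had 593, 609 and 612 CPM in OSW-1 with LPS and 163, 173 and 166 CPM in OSW-1 alone (1.85 ± 0.11, adjusted p = 1.51e-13). Rel, the c-Rel subunit, had 104, 110 and 92.7 CPM in OSW-1 with LPS and 20.1, 19.4 and 21.4 CPM in OSW-1 alone (2.33 ± 0.15, adjusted p = 6.2e-13). In untreated cells Nfkb1 was at -0.01 ± 0.11 (adjusted p = 0.924) and Rel fell by 0.36 ± 0.15, so that the responses differed by 1.87 ± 0.15 (adjusted p = 6.33e-10) and 2.69 ± 0.21 (adjusted p = 2.36e-10). Nfkb2, the precursor of p52, rose by 3.14 ± 0.16. The feedback inhibitor Nfkbia, which encodes IkB alpha, rose by 2.71 ± 0.18, and its difference from the untreated response was -0.30 ± 0.25 (adjusted p = 0.323).

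The brakes on Toll-like receptor signalling included 12 that were higher and 2 that were lower among 17 (median 2.71). Irak3, which blocks IRAK kinases, had 370, 377 and 414 CPM in OSW-1 with LPS and 33.7, 32.9 and 31.1 CPM in OSW-1 alone (3.57 ± 0.12, adjusted p = 5.83e-18). Socs3, an inhibitor of cytokine receptor signalling, had 660, 680 and 1030 CPM in OSW-1 with LPS and 4.09, 4.69 and 5.49 CPM in OSW-1 alone (7.38 ± 0.29, adjusted p = 4.29e-17). Zc3h12a, the RNase that degrades Il6 mRNA, rose by 3.01 ± 0.15 and Tnfaip3, the ubiquitin editor A20, by 4.0 ± 0.28. Some brakes that rose in untreated cells did not do so in OSW-1 cells. Tnip3, a partner of A20, had 123, 119 and 148 CPM in OSW-1 with LPS and 232, 235 and 215 CPM in OSW-1 alone (-0.81 ± 0.19, adjusted p = 0.000485), and Dusp1, a phosphatase of MAP kinases, had 141, 153 and 133 CPM in OSW-1 with LPS and 236, 177 and 136 CPM in OSW-1 alone (-0.36 ± 0.18, adjusted p = 0.0764, or -0.33 with adjusted p = 0.0198 with the mouse as a block). In untreated cells Tnip3 rose by 2.49 ± 0.20 and Dusp1 by 2.76 ± 0.19, and the responses differed by -3.30 ± 0.27 (adjusted p = 6.99e-10) and -3.12 ± 0.26 (adjusted p = 9.02e-10). Sigirr, an inhibitory receptor, fell by 4.80 ± 0.41. Starting levels differed between the arms: OSW-1 alone lay above untreated cells at 8 of the 17 brakes and below at 1 (20.1% and 17.2% of all genes). With LPS, 9 of the 17 were higher in OSW-1 cells than in untreated cells and 4 lower (34.3% and 37.1% of all genes).

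Among Toll-like receptors and adaptors, 11 were higher and 9 lower of 23, with a median of 0.02, beside 34.8% and 36.6% of all tested genes. Tlr4 itself averaged 161 ± 5.88 CPM in OSW-1 with LPS and 163 ± 28.4 CPM in OSW-1 alone (-0.02 ± 0.10, adjusted p = 0.895). Its cofactor Cd14 had 4590, 4820 and 5240 CPM in OSW-1 with LPS and 2010, 1630 and 1290 CPM in OSW-1 alone (1.57 ± 0.16, adjusted p = 2.09e-09). The surface receptors Tlr1 and Tlr2 rose by 3.33 ± 0.16 and 1.55 ± 0.20, and the endosomal receptors of nucleic acids Tlr7, Tlr9 and Tlr13 fell by 1.56 ± 0.14, 5.06 ± 0.35 and 3.10 ± 0.09. Tlr9, the receptor of CpG DNA, had 0.642, 0.262 and 0.757 CPM in OSW-1 with LPS and 17.0, 19.4 and 19.6 CPM in OSW-1 alone. It rose in untreated cells by 0.65 ± 0.24 (difference -5.70 ± 0.43, adjusted p = 1.51e-10).

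All 40 interferon-stimulated genes tested were higher with LPS in OSW-1 cells, against 34.8% of all genes, with a median of 3.43. Gbp5, whose promoter is shown above, had 255, 268 and 234 CPM in OSW-1 with LPS and 0.697, 0.683 and 1.12 CPM in OSW-1 alone (8.26 ± 0.53, adjusted p = 6.22e-13). Rsad2 had 1090, 1040 and 756 CPM in OSW-1 with LPS and 13.4, 12.7 and 16.6 CPM in OSW-1 alone (6.08 ± 0.58, adjusted p = 1.06e-09). Isg15, a ubiquitin-like modifier, had 460, 463 and 463 CPM in OSW-1 with LPS and 7.27, 6.79 and 8.29 CPM in OSW-1 alone (5.96 ± 0.40, adjusted p = 1.78e-12). The groups were separate for these 3 genes. The smallest changes of the list were those of Irf9, a partner of STAT proteins (1.14 ± 0.10), and Oas2, an antiviral RNA sensor (1.36 ± 0.17).

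In untreated cells the same 40 genes were also higher, with a median of 2.29. Of the responses, 26 were larger in OSW-1 cells and 1 smaller (23.4% and 28.3% of all genes). The Gbp5 response was larger by 3.84 ± 0.62 (adjusted p = 1.5e-05), that of Rsad2 by 2.63 ± 0.67 (adjusted p = 0.00208) and that of Isg15 by 2.18 ± 0.47 (adjusted p = 0.000417). The smaller response was that of Bst2, which tethers viruses to the cell (-0.93 ± 0.22, adjusted p = 0.00116). Starting levels differed between the arms. OSW-1 alone lay below untreated cells at 39 of the 40 genes and above at 0 (17.2% and 20.1% of all tested genes). With LPS, 29 of the 40 were lower in OSW-1 cells than in untreated cells and 1 was higher (37.1% and 34.3% of all genes). Irf7, which amplifies interferon transcription, averaged 467 ± 78.1 CPM in OSW-1 with LPS and 36.9 ± 11.3 CPM in OSW-1 alone, and 2550 ± 486 CPM in untreated cells with LPS and 181 ± 36.1 CPM in untreated cells alone (difference between responses -0.15 ± 0.34, adjusted p = 0.739).

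Prostaglandin and acute-phase genes included 14 that were higher and 4 that were lower among 18 (median 2.88). Ptgs2, the inducible cyclooxygenase COX-2, had 10300, 10100 and 11600 CPM in OSW-1 with LPS and 6.75, 6.05 and 4.99 CPM in OSW-1 alone (10.81 ± 0.74, adjusted p = 2.33e-12). In untreated cells with LPS it averaged 118 ± 96.4 CPM. The difference of its responses was 2.52 ± 1.08 (adjusted p = 0.0531), or 2.81 with adjusted p = 0.0236 with the mouse as a block. Lcn2, which captures bacterial siderophores, had 1920, 1840 and 2390 CPM in OSW-1 with LPS and 0.784, 0.488 and 0.616 CPM in OSW-1 alone (11.65 ± 0.38, adjusted p = 1.85e-18), and its response in untreated cells was 11.55 ± 0.39. Saa3, an acute-phase apolipoprotein, had 1580, 1640 and 4530 CPM in OSW-1 with LPS and 1.31, 1.37 and 1.85 CPM in OSW-1 alone (10.75 ± 0.66, adjusted p = 2.46e-13), with mouse 3 well above the others. Untreated cells with LPS averaged 40600 ± 3880 CPM of Saa3, and the response in OSW-1 cells was smaller (difference -2.75 ± 0.69, adjusted p = 0.00179). The prostaglandin E synthase Ptges rose by 6.76 ± 0.33, less than in untreated cells (difference -3.02 ± 0.44, adjusted p = 3.43e-06).

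The members that fell were enzymes and a receptor of eicosanoids. Alox5ap, which presents arachidonate to 5-lipoxygenase, had 23, 26.5 and 30.4 CPM in OSW-1 with LPS and 387, 406 and 448 CPM in OSW-1 alone (-3.96 ± 0.18, adjusted p = 7.93e-16). Ptgs1, the constitutive cyclooxygenase COX-1, had 0.161, 0.374 and 0.413 CPM in OSW-1 with LPS and 21.5, 28.8 and 38.7 CPM in OSW-1 alone (-6.51 ± 0.36, adjusted p = 2.98e-14). Alox5, the 5-lipoxygenase, fell by 7.60 ± 0.54 and the prostaglandin E2 receptor Ptger4 by 2.30 ± 0.30. Ptger4 rose in untreated cells by 1.80 ± 0.29.

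Of the genes of nitric oxide and arginine, 8 were higher and 1 lower of 10 (median 1.77). Nos2, the inducible nitric oxide synthase, had 48.0, 34.6 and 29.8 CPM in OSW-1 with LPS and 0, 0.0488 and 0 CPM in OSW-1 alone, a ratio of 2270 with a 95% interval of 407 to 89700 from counting error. In untreated cells with LPS it averaged 425 ± 258 CPM. Arg1, which competes with Nos2 for arginine, had 0.321, 0.486 and 10.0 CPM in OSW-1 with LPS and 0.479, 0.635 and 2.07 CPM in OSW-1 alone (1.87 ± 0.77, adjusted p = 0.0337). The Arg1 increase rested on mouse 3 with LPS: without that library the value was -1.32 (adjusted p = 0.181), and it was also not called by DESeq2 (1.78, adjusted p = 0.0978) or without mouse 1 (1.49) or mouse 2 (1.61) of OSW-1 alone. The arginine carrier Slc7a2 rose by 6.50 ± 0.48, the mitochondrial arginase Arg2 by 5.12 ± 0.35 and Gch1, which starts the synthesis of a cofactor of Nos2, by 2.06 ± 0.14.

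Genes of glycolysis, glucose uptake and itaconate included 12 that were higher and 4 that were lower among 22, with a median of 0.37, and 7 were higher without mouse 3 of OSW-1 with LPS. In untreated cells 20 of 22 were higher (30.8% of all genes were higher there and 30.1% lower), with a median of 1.42, and 20 of the 22 responses were smaller in OSW-1 cells and none larger, against 28.3% smaller over all genes. Pfkfb3, which makes the activator of phosphofructokinase, had 54.9, 53.8 and 83.8 CPM in OSW-1 with LPS and 18.0, 22.3 and 22.5 CPM in OSW-1 alone (1.62 ± 0.16, adjusted p = 2.87e-09). Untreated cells averaged 754 ± 125 CPM with LPS and 21.1 ± 1.67 CPM without, and the responses differed by -3.54 ± 0.23 (adjusted p = 1.71e-11). Ldha, lactate dehydrogenase, had 366, 398 and 740 CPM in OSW-1 with LPS and 406, 474 and 489 CPM in OSW-1 alone. Its groups overlapped (0.14 ± 0.19, adjusted p = 0.536), and it rose by 1.64 ± 0.20 in untreated cells. Pdk1, which closes the mitochondrial entry of pyruvate, fell by 1.65 ± 0.23. Hif1a, a transcription factor that switches on glycolysis, rose by 2.22 ± 0.13. Irg1, an older symbol of Acod1, which makes itaconate, had 4300, 4270 and 5270 CPM in OSW-1 with LPS and 37.2, 23.1 and 11.7 CPM in OSW-1 alone (7.58 ± 0.61, adjusted p = 4.24e-11), and its response was smaller than in untreated cells (-2.33 ± 0.69, adjusted p = 0.00625), where it averaged 3130 ± 1100 CPM with LPS.

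Oxidative phosphorylation genes included 11 that were higher and 9 that were lower among 29 with a median of 0.01, beside 34.8% and 36.6% of all genes. The count of lower members was 5 without mouse 3 of OSW-1 alone, without mouse 1 of OSW-1 with LPS or without mouse 2 of OSW-1 with LPS.

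Lysosomal genes included 24 that were lower and 3 that were higher among 32 (median -0.91), against 36.6% lower of all genes. Ctsb, the protease cathepsin B, had 2090, 2020 and 2020 CPM in OSW-1 with LPS and 11200, 11800 and 13400 CPM in OSW-1 alone (-2.57 ± 0.13, adjusted p = 7.02e-15). Ctsd, cathepsin D, had 2060, 2080 and 2360 CPM in OSW-1 with LPS and 8040, 8800 and 9910 CPM in OSW-1 alone (-2.04 ± 0.12, adjusted p = 1.48e-13). Hexa, a subunit of beta-hexosaminidase, fell by 2.40 ± 0.12, and Lipa, the acid lipase that frees cholesterol from its esters, by 2.14 ± 0.20. In untreated cells the list had a median of 0.08, with 13 higher and 6 lower, and Ctsb was at -0.16 ± 0.12 (adjusted p = 0.256). By signed value, the responses were lower in OSW-1 cells at 28 and higher at 2 of 32 (28.3% and 23.4% of all genes). Ctss, a cathepsin of antigen processing, had 302, 345 and 523 CPM in OSW-1 with LPS and 1490, 1700 and 2480 CPM in OSW-1 alone. It rose in untreated cells by 0.95 ± 0.21, and the responses differed by -3.22 ± 0.31 (adjusted p = 6.19e-09). The members that rose in OSW-1 cells were the cathepsins Ctsc and Ctsz, by 0.85 ± 0.18 and 0.67 ± 0.10, and Atp6v1h, a subunit of the proton pump, by 0.83 ± 0.11.

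MHC class II genes, which present extracellular antigen, included 5 that were lower and 1 that was higher among 10 (median -1.18), a smaller share called than the 71.3% of all tested genes. H2-DMb1, a chain of the peptide editor of this pathway, had 1.93, 1.83 and 4.02 CPM in OSW-1 with LPS and 18.9, 21.6 and 24.8 CPM in OSW-1 alone (-3.05 ± 0.28, adjusted p = 6.54e-10). In untreated cells it rose by 1.13 ± 0.23, and the responses differed by -4.18 ± 0.37 (adjusted p = 1.95e-09). H2-Aa fell by 2.48 ± 0.44, whereas its partner chain H2-Ab1 rose by 3.32 ± 0.36, with 50.7, 63.7 and 149 CPM in OSW-1 with LPS and 5.31, 7.96 and 13.3 CPM in OSW-1 alone. Ciita, the master regulator, had 0.321, 0.337 and 0.0344 CPM in OSW-1 with LPS and 0.479, 0.391 and 1.4 CPM in OSW-1 alone (-1.71 ± 0.67, adjusted p = 0.0263), and was not called without mouse 3 of OSW-1 with LPS (-1.17) or of OSW-1 alone (-0.94), with the animal as a random effect in limma-voom (-1.84, adjusted p = 0.0862) or with the compared groups only (-1.72, adjusted p = 0.0608).

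Genes of MHC class I loading and the immunoproteasome included 13 that were higher and 2 that were lower among 18 (median 0.72). Of the responses, 10 were smaller than in untreated cells, where 18 were higher (28.3% of all genes had a smaller response). The proteasome activator Psme2 rose by 2.52 ± 0.13 and the inducible subunit Psmb8 by 1.53 ± 0.10. B2m, the light chain of MHC class I, had 1890, 1880 and 2480 CPM in OSW-1 with LPS and 1800, 1850 and 2170 CPM in OSW-1 alone (0.11 ± 0.12, adjusted p = 0.44), and rose by 1.36 ± 0.12 in untreated cells. Costimulatory and checkpoint ligands were higher at 10 of 12 and lower at none (median 2.33). Cd40, which receives T cell help, had 798, 889 and 871 CPM in OSW-1 with LPS and 15.7, 18.4 and 17.6 CPM in OSW-1 alone (5.63 ± 0.32, adjusted p = 4.61e-14). Cd274, which encodes the checkpoint ligand PD-L1, had 740, 821 and 1030 CPM in OSW-1 with LPS and 13.8, 13.8 and 20 CPM in OSW-1 alone (5.77 ± 0.34, adjusted p = 1.57e-13), with 5.60 ± 0.34 in untreated cells. Cd80, a ligand of CD28, and Cd83 rose by 2.71 ± 0.20 and 1.25 ± 0.45 in OSW-1 cells, and fell in untreated cells by 0.66 ± 0.20 and 2.25 ± 0.48.

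Beside these ligands, 3 of 3 tested markers of dendritic cells were higher, and their list of 8 summed to 32.7 to 63.0 CPM in OSW-1 with LPS and 0.976 to 1.96 CPM in OSW-1 alone. Most of this was Ccr7, the lymph node homing receptor, at 43.6 ± 13.4 CPM in OSW-1 with LPS and 0.0495 ± 0.00627 CPM in OSW-1 alone. Markers of fibroblasts and stroma summed to 16.2 to 24.2 CPM in OSW-1 with LPS and 1.12 to 2.44 CPM in OSW-1 alone, with 3 higher and 1 lower of 7 tested. Most of the sum with LPS was Pdgfrb, at 15.7 ± 3.54 CPM in OSW-1 with LPS and 0.418 ± 0.129 CPM in OSW-1 alone. Markers of neutrophils summed to 1.98 to 3.89 CPM in OSW-1 with LPS and 3.92 to 6.5 CPM in OSW-1 alone, those of T and NK cells to 1.0 to 1.72 CPM and 4.2 to 7.29 CPM, and those of B cells to 0.161 to 0.722 CPM and 4.23 to 4.78 CPM. Of the 3 tested T and NK markers, Cd4 and Klrb1c fell by 6.05 ± 0.77 and 5.54 ± 0.97, and Lck rose by 1.47 ± 0.54. The B cell sum was mostly Cd79b, at 0.382 ± 0.286 CPM in OSW-1 with LPS and 4.47 ± 0.398 CPM in OSW-1 alone. The part of other cell types in the values of the chemokines, ligands and matrix genes was not tested.

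Genes of scavenging, dead cell uptake and resident macrophages included 18 that were lower and 3 that were higher among 23 (median -3.57). Cx3cr1, the receptor of fractalkine, had 0.12, 0.224 and 0.206 CPM in OSW-1 with LPS and 163, 202 and 202 CPM in OSW-1 alone (-9.96 ± 0.79, adjusted p = 3.54e-11). Mrc1, the mannose receptor, had 2.17, 1.61 and 4.2 CPM in OSW-1 with LPS and 555, 694 and 573 CPM in OSW-1 alone (-7.82 ± 0.36, adjusted p = 1.11e-15). C1qb, a chain of the complement component C1q that tags dead cells, had 53.4, 78.8 and 152 CPM in OSW-1 with LPS and 1500, 1740 and 2010 CPM in OSW-1 alone (-4.20 ± 0.29, adjusted p = 2.75e-12). The groups were separate for these 3 genes, but Cx3cr1 and Mrc1 were named by a rule that required it. C1qa and C1qc fell by 4.56 ± 0.43 and 4.47 ± 0.35, the efferocytosis receptor Mertk by 4.57 ± 0.28, its ligand Gas6 by 4.20 ± 0.14 and the folate receptor Folr2 by 3.83 ± 0.16. Marco, a scavenger receptor of bacteria, went the other way, with 110, 175 and 265 CPM in OSW-1 with LPS and 0.61, 0.537 and 0.673 CPM in OSW-1 alone (8.24 ± 0.42, adjusted p = 6.4e-15).

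In untreated cells the median of this list was -0.47. Of the 23 responses, 17 were lower in OSW-1 cells and none higher (28.3% and 23.4% of all genes). Cx3cr1 averaged 3.1 ± 1.98 CPM in untreated cells with LPS and 8.97 ± 1.75 CPM in untreated cells alone, so that OSW-1 alone was the highest of the 4 groups (difference between responses -8.43 ± 1.01, adjusted p = 2.28e-07). Itraconazole alone (161 ± 24.4 CPM) and 25HC alone (60.5 ± 17.7 CPM) were also above untreated cells alone. Cx3cr1 fell with LPS after both, by 4.36 ± 0.51 and 4.97 ± 0.57, less than after OSW-1. These responses differed from that of OSW-1 cells by -5.6 ± 1.02 (adjusted p = 0.00018) and -4.99 ± 1.1 (adjusted p = 0.000725). C1qa was at 0.08 ± 0.37 (adjusted p = 0.864) in untreated cells (difference -4.64 ± 0.55, adjusted p = 2.14e-07). Siglec1, the lectin CD169, fell by 2.60 ± 0.27 in OSW-1 cells and rose by 1.53 ± 0.25 in untreated cells. Of 10 general markers of macrophages, 2 were higher, Cd14 and Emr1, an older symbol of the F4/80 gene Adgre1, and 7 lower. Among the lower ones, Cd68 averaged 125 ± 10.6 CPM in OSW-1 with LPS and 1300 ± 108 CPM in OSW-1 alone, and the lysozyme gene Lyz2 1850 ± 781 CPM in OSW-1 with LPS and 12700 ± 65.0 CPM in OSW-1 alone. The growth factor receptor Csf1r fell by 0.93 ± 0.15.

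**Figure D2:**
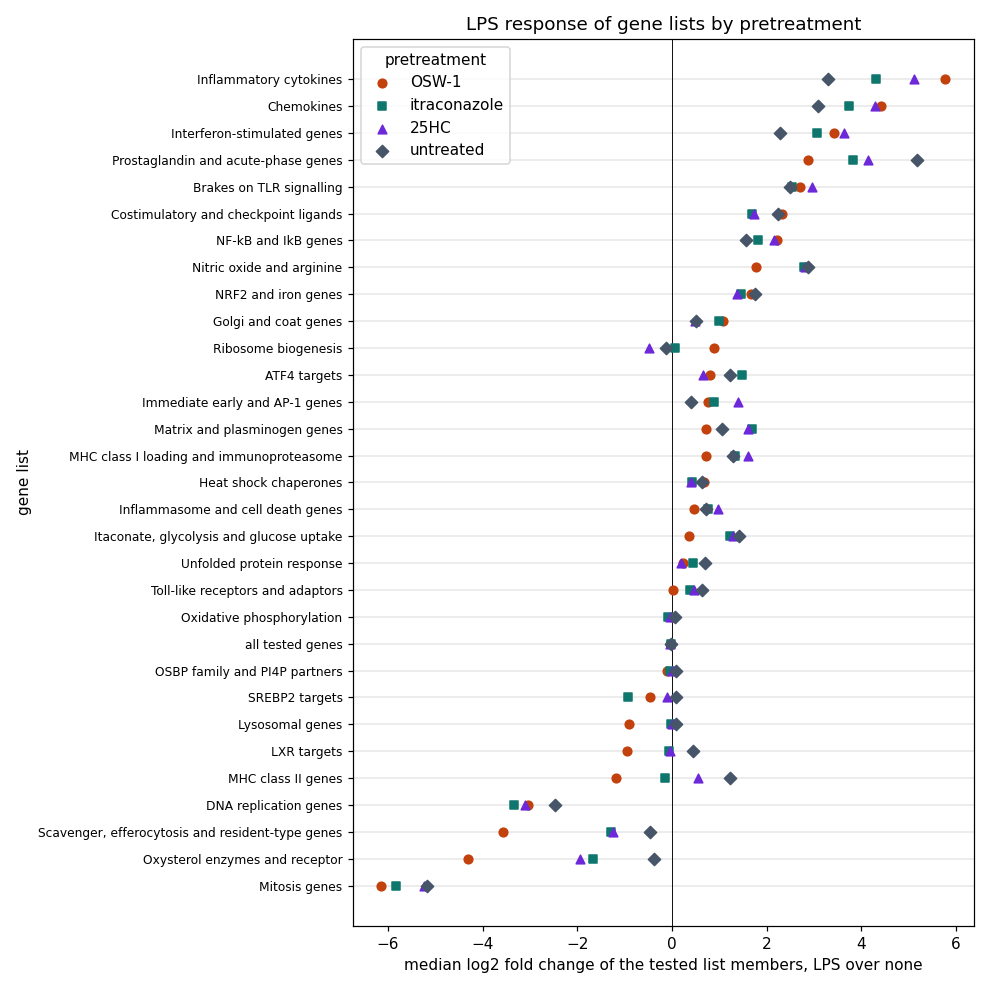
Median log2 fold change of LPS over no LPS for the tested members of each gene list and for all tested genes, in cells pretreated with OSW-1, itraconazole or 25HC and in untreated cells (fitted values, 3 libraries per group). For OSW-1 cells the medians run from 5.78 for inflammatory cytokines to -6.14 for mitosis genes, with -0.91 for lysosomal genes, where untreated cells had 0.08.

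Mitosis genes were lower at all 25 members (median -6.14), and DNA replication genes at 29 of 30 with none higher (median -3.05). Ccna2, the cyclin of S phase and mitosis, had 0.0803, 0.15 and 0.103 CPM in OSW-1 with LPS and 138, 135 and 115 CPM in OSW-1 alone (-10.13 ± 0.25, adjusted p = 1.65e-20). Top2a, which untangles replicated DNA, had 9.67, 10.1 and 10.0 CPM in OSW-1 with LPS and 308, 314 and 263 CPM in OSW-1 alone (-4.89 ± 0.11, adjusted p = 1.99e-21). Ccnd1, the cyclin that answers growth factors, had 0.923, 0.973 and 1.1 CPM in OSW-1 with LPS and 468, 595 and 407 CPM in OSW-1 alone (-8.93 ± 0.53, adjusted p = 1.51e-13). The groups were separate for these 3 genes, but Ccna2 and Ccnd1 were named by a rule that required it. In untreated cells the medians were -5.17 and -2.48, and the Top2a responses differed by 0.28 ± 0.13 (adjusted p = 0.075). The Ccnd1 responses differed by -6.66 ± 0.61 (adjusted p = 3.64e-09). The replication gene that was not called was Tyms, thymidylate synthase, with 28.3, 26.0 and 34.7 CPM in OSW-1 with LPS and 22.7, 26.1 and 27.0 CPM in OSW-1 alone. Its groups overlapped (0.23 ± 0.19, adjusted p = 0.264), whereas in untreated cells it fell by 4.10 ± 0.23 (difference 4.34 ± 0.29, adjusted p = 2.75e-11).

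Genes of ribosome biogenesis included 20 that were higher and 1 that was lower among 26 (median 0.89). Of the 26 responses, 24 were larger than in untreated cells (23.4% of all genes). In untreated cells 1 was higher and 10 lower (median -0.12). Rrp12, an export factor of ribosomal subunits, had 50.5, 51.1 and 47.8 CPM in OSW-1 with LPS and 16.7, 15.6 and 10.3 CPM in OSW-1 alone (1.81 ± 0.22, adjusted p = 9.02e-08), and was at 0.09 ± 0.24 (adjusted p = 0.77) in untreated cells. Mybbp1a, a nucleolar regulator of ribosomal RNA synthesis, had 418, 397 and 329 CPM in OSW-1 with LPS and 142, 144 and 124 CPM in OSW-1 alone (1.48 ± 0.18, adjusted p = 4.67e-08). Nop14, Wdr43 and Cirh1a, an older symbol of Utp4, all processing factors of the small subunit, rose by 1.26 ± 0.12, 1.34 ± 0.12 and 1.20 ± 0.13. Npm1, nucleophosmin, was the member that fell (-0.49 ± 0.07). The responses of 23 of the 26 were also larger than after itraconazole and those of 26 larger than after 25HC, against 12.4% and 20.5% of all genes. Myc, a driver of ribosome synthesis, had 11.5, 15.9 and 16.4 CPM in OSW-1 with LPS and 34.6, 43.4 and 31.6 CPM in OSW-1 alone (-1.32 ± 0.25, adjusted p = 3.99e-05).

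Golgi and coat genes, of the compartment at which OSBP works, were higher at 24 of 26 and lower at none (median 1.09). Arf4, a small GTPase of the Golgi, had 657, 646 and 579 CPM in OSW-1 with LPS and 215, 199 and 191 CPM in OSW-1 alone (1.64 ± 0.10, adjusted p = 1.25e-13). Kdelr2, which returns escaped proteins to the endoplasmic reticulum, had 289, 286 and 277 CPM in OSW-1 with LPS and 125, 122 and 115 CPM in OSW-1 alone (1.24 ± 0.08, adjusted p = 2.64e-13), and its relative Kdelr3 had 20.3, 18.2 and 17.4 CPM in OSW-1 with LPS and 1.13, 1.07 and 1.01 CPM in OSW-1 alone (4.11 ± 0.33, adjusted p = 5.46e-11). Copb2 and Cope, subunits of the COPI coat, rose by 1.27 ± 0.08 and 1.13 ± 0.06. In untreated cells 22 of the 26 were higher with a median of 0.50. Of the responses, 18 were larger in OSW-1 cells and 1 smaller (23.4% and 28.3% of all genes). The smaller response was that of Creb3l2, a transcription factor of the secretory pathway, at -0.15 ± 0.09 (adjusted p = 0.117) in OSW-1 cells and 0.89 ± 0.09 in untreated cells. OSW-1 alone already lay above untreated cells at 22 of the 26, against 20.1% of all genes. Against itraconazole 1 response of this list was larger and 1 smaller (12.4% and 17.8% of all genes).

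In the OSBP family and its partners 6 were higher and 8 lower of 19 (median -0.11), close to the 34.8% and 36.6% of all tested genes. Osbp itself had 186, 187 and 182 CPM in OSW-1 with LPS and 110, 99.2 and 99.8 CPM in OSW-1 alone (0.84 ± 0.09, adjusted p = 3.29e-09), and its response was larger than in untreated cells by 0.58 ± 0.12 (adjusted p = 0.000288). Of its relatives, Osbpl3 and Osbpl2 rose by 1.70 ± 0.20 and 0.83 ± 0.07, and Osbpl9 and Osbpl7 fell by 0.99 ± 0.10 and 1.00 ± 0.11. Of the enzymes and the receptor of oxysterols, 4 of 5 tested were lower and none higher. Ch25h, which makes 25HC, had 0.762, 0.599 and 1.82 CPM in OSW-1 with LPS and 29.1, 25.3 and 9.92 CPM in OSW-1 alone (-4.31 ± 0.61, adjusted p = 7.96e-07). Untreated cells averaged 1.51 ± 0.726 CPM with LPS and 1.96 ± 0.466 CPM without, so OSW-1 alone was the high group. Gpr183, a receptor of dihydroxylated oxysterols, had 0.803, 1.27 and 1.07 CPM in OSW-1 with LPS and 41.6, 61.4 and 67.0 CPM in OSW-1 alone (-5.75 ± 0.45, adjusted p = 2.99e-11), and Cyp27a1, a sterol hydroxylase of mitochondria, fell by 5.79 ± 0.56.

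Targets of SREBP2, the activator of cholesterol synthesis, included 14 that were lower and 4 that were higher among 24 (median -0.47). Of all tested genes, 36.6% were lower and 34.8% higher. Dhcr7, a reductase at the end of the pathway, had 2.37, 2.62 and 2.75 CPM in OSW-1 with LPS and 16.1, 17.6 and 22.0 CPM in OSW-1 alone (-2.84 ± 0.21, adjusted p = 1.27e-11). Hmgcs1, a synthase early in the pathway, was at 0.25 ± 0.13 (adjusted p = 0.0906). Insig1, which holds the SREBP complex in the endoplasmic reticulum, rose by 0.98 ± 0.15. OSW-1 alone already lay below untreated cells without LPS at 24 of the 24 genes (median -1.74), against 17.2% lower of all tested genes. With LPS, 23 of the 24 were lower in OSW-1 cells than in untreated cells (median -2.24), against 37.1% of all genes.

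Targets of the sterol receptor LXR included 10 that were lower and 2 that were higher among 15 (median -0.95), where untreated cells had 8 higher and none lower (median 0.44). Pltp, a phospholipid carrier, had 54.3, 80.1 and 168 CPM in OSW-1 with LPS and 937, 1120 and 1550 CPM in OSW-1 alone (-3.57 ± 0.40, adjusted p = 1.96e-08), and rose in untreated cells by 1.02 ± 0.37. Scd2, a fatty acid desaturase, fell by 2.31 ± 0.35 and rose in untreated cells by 1.67 ± 0.34. Apoe, the apolipoprotein that accepts exported cholesterol, fell by 2.98 ± 0.60. The exporter Abca1 was at 0.25 ± 0.21 (adjusted p = 0.281), and Abcg1, its relative, had 435, 447 and 451 CPM in OSW-1 with LPS and 594, 533 and 584 CPM in OSW-1 alone (-0.36 ± 0.13, adjusted p = 0.0183). The Abcg1 call was lost without mouse 1 of OSW-1 alone (-0.33, adjusted p = 0.054).

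Genes of NRF2 and iron included 17 that were higher and 2 that were lower among 20 (median 1.68). Slc7a11, the cystine carrier that is also an ATF4 target, had 690, 691 and 689 CPM in OSW-1 with LPS and 11.9, 6.59 and 4.76 CPM in OSW-1 alone (6.47 ± 0.44, adjusted p = 2.31e-12). Fth1, the ferritin heavy chain, had 22700, 22100 and 27700 CPM in OSW-1 with LPS and 5810, 5760 and 7030 CPM in OSW-1 alone (1.96 ± 0.13, adjusted p = 1.28e-12). Hmox1, which breaks down heme, had 469, 491 and 556 CPM in OSW-1 with LPS and 256, 285 and 252 CPM in OSW-1 alone (0.94 ± 0.30, adjusted p = 0.00684). Untreated cells with LPS averaged 5570 ± 2950 CPM of Hmox1, and the responses differed by -3.22 ± 0.43 (adjusted p = 1.01e-06). ATF4 targets were higher at 13 of 24 and lower at none (median 0.81), against 34.8% and 36.6% of all tested genes. Ppp1r15a, which restores translation after stress, rose by 2.53 ± 0.27 and Ddit3, the transcription factor CHOP, by 1.06 ± 0.25. Chac1, which degrades glutathione, was at 0.75 ± 0.38 (adjusted p = 0.0801), the stress factor Atf3 at 0.11 ± 0.27 (adjusted p = 0.718) and the folate enzyme Mthfd2 at 0.50 ± 0.25 (adjusted p = 0.0756). Chac1 was called with the animal as a random effect in limma-voom (0.79, adjusted p = 0.00542), with the compared groups only (0.74, adjusted p = 0.0112), with halved counts (0.77, adjusted p = 0.0476) and without mouse 1 of OSW-1 alone (1.06, adjusted p = 0.0325). With the mouse as a block Mthfd2 was called (0.54, adjusted p = 0.0233).

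Of 21 genes of the unfolded protein response, 11 were higher and 4 lower (median 0.24), about the 71.3% called of all tested genes. Of the responses, 13 were smaller than in untreated cells, against 28.3% of all genes, and 2 were larger. In untreated cells 18 were higher and none lower. OSW-1 alone already lay above untreated cells at 17 of the 21 and below at none (20.1% and 17.2% of all genes). With LPS, 9 of the 21 were higher in OSW-1 cells than in untreated cells and 6 lower (34.3% and 37.1% of all genes). Hspa5, the chaperone BiP, had 2750, 2870 and 3650 CPM in OSW-1 with LPS and 1510, 1650 and 1830 CPM in OSW-1 alone (0.89 ± 0.13, adjusted p = 1.07e-06), and its cochaperone Dnajb9 rose by 1.12 ± 0.10. The calcium-binding chaperone Calr had a change of -0.48 ± 0.14 (adjusted p = 0.00325) with groups that overlapped, and rose by 1.23 ± 0.14 in untreated cells. Heat shock chaperones included 12 that were higher and 1 that was lower among 15 (median 0.67). Hspa9 and Hspd1, the Hsp70 and Hsp60 of mitochondria, rose by 1.62 ± 0.17 and 1.18 ± 0.14, more than in untreated cells (0.99 ± 0.23, adjusted p = 0.000999 and 1.06 ± 0.20, adjusted p = 9.24e-05).

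Among genes of inflammasomes and cell death 14 were higher and 7 lower of 27 (median 0.47), beside 34.8% and 36.6% of all tested genes. Nlrp3, a sensor of the inflammasome that matures IL-1 beta, had 633, 585 and 530 CPM in OSW-1 with LPS and 170, 159 and 118 CPM in OSW-1 alone (1.97 ± 0.18, adjusted p = 5.04e-10). Its adaptor Pycard, also called ASC, had 4.94, 4.34 and 7.6 CPM in OSW-1 with LPS and 31.8, 42.3 and 51.3 CPM in OSW-1 alone (-2.89 ± 0.26, adjusted p = 3.66e-10). The sensor and the adaptor moved in opposite directions without overlap of the groups, and their differences from the untreated response were 1.76 ± 0.25 (adjusted p = 2.7e-06) and -3.26 ± 0.34 (adjusted p = 3.22e-08). The LPS-sensing caspase Casp4 rose by 2.30 ± 0.19 and the survival gene Mcl1 fell by 0.75 ± 0.10. The survival genes Bcl2a1a, Bcl2a1b and Bcl2a1d rose by 6.36 ± 0.33, 3.34 ± 0.29 and 5.95 ± 0.40, though reads of such close copies may be split between them.

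Immediate early and AP-1 genes included 17 that were higher and 7 that were lower among 27 (median 0.77), beside 34.8% and 36.6% of all tested genes. Batf, an AP-1 factor that pairs with IRF proteins, had 139, 146 and 172 CPM in OSW-1 with LPS and 2.74, 2.64 and 2.8 CPM in OSW-1 alone (5.80 ± 0.25, adjusted p = 3.78e-16). The orphan receptor Nr4a1 had 41.9, 48.6 and 33.1 CPM in OSW-1 with LPS and 3.66, 5.17 and 7.01 CPM in OSW-1 alone (2.97 ± 0.35, adjusted p = 3.68e-08), and fell by 1.68 ± 0.40 in untreated cells (difference 4.64 ± 0.53, adjusted p = 1.05e-07). Klf2, which restrains macrophage activation, had 0.722, 0.786 and 0.585 CPM in OSW-1 with LPS and 10.3, 12.3 and 13.1 CPM in OSW-1 alone (-4.09 ± 0.37, adjusted p = 4.89e-10), and Fos fell by 1.65 ± 0.26.

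Genes of the matrix and of plasminogen included 10 that were higher and 6 that were lower among 22 (median 0.73), against 34.8% and 36.6% of all tested genes. Serpinb2, an inhibitor of plasminogen activators, had 242, 284 and 587 CPM in OSW-1 with LPS and 0.0871, 0.146 and 0.056 CPM in OSW-1 alone (11.83 ± 0.70, adjusted p = 1.51e-13). Plau, the activator urokinase that it inhibits, had 3.37, 3.4 and 4.13 CPM in OSW-1 with LPS and 286, 524 and 624 CPM in OSW-1 alone (-7.03 ± 0.49, adjusted p = 2.66e-12). Thbs1, thrombospondin, rose by 7.0 ± 0.51, and the metalloprotease inhibitor Timp2 fell by 5.07 ± 0.32. Its relative Timp1 had 1.08, 1.76 and 6.88 CPM in OSW-1 with LPS and 1.35, 2.25 and 3.03 CPM in OSW-1 alone (0.60 ± 0.56, adjusted p = 0.343), and rose by 6.12 ± 0.56 in untreated cells.

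Set side by side over all genes, 2544 were higher in both the OSW-1 and the untreated response, which is 55.6% of those higher in OSW-1 cells and 62.7% of those higher in untreated cells. Lower in both were 2630, 54.6% of those lower in OSW-1 cells and 66.3% of those lower in untreated cells. Opposite calls were made for 430 genes that were higher in OSW-1 cells and lower in untreated cells, and for 609 that were lower in OSW-1 cells and higher in untreated cells. Among the genes higher in both, the response was larger in OSW-1 cells at 688 and smaller at 348. Among those lower in both, the fall was larger in OSW-1 cells at 1004 and smaller at 208.

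Several genes outside the lists differed most on the lower side. Tgfbi, a matrix protein induced by TGF-beta, had 1.81, 1.98 and 13.1 CPM in OSW-1 with LPS and 317, 404 and 578 CPM in OSW-1 alone (-6.24 ± 0.51, adjusted p = 5.67e-11). It rose in untreated cells by 2.63 ± 0.42, and averaged 1670 ± 224 CPM with LPS and 269 ± 7.6 CPM without, so that the responses differed by -8.88 ± 0.66 (adjusted p = 1.05e-10). Ly6a, the surface protein Sca-1, had 0.361, 0.187 and 0.55 CPM in OSW-1 with LPS and 3.4, 2.78 and 5.1 CPM in OSW-1 alone (-3.32 ± 0.62, adjusted p = 3.91e-05), and averaged 151 ± 67.9 CPM in untreated cells with LPS and 11.6 ± 3.6 CPM in untreated cells alone (difference -7.02 ± 0.69, adjusted p = 1.17e-08). Sirpb1b and Sirpb1c, receptor genes that are close copies of each other, fell by 4.09 ± 0.50 and 4.28 ± 0.55 and rose in untreated cells by 2.95 ± 0.38 and 3.57 ± 0.43. Apoc2, a cofactor of lipoprotein lipase, fell by 4.73 ± 0.97 and rose by 2.23 ± 0.61 in untreated cells. Nxpe5 fell by 8.80 ± 1.21 and was at -0.31 ± 0.54 (adjusted p = 0.641) in untreated cells. Its differences from the itraconazole and 25HC responses were called (-6.79 ± 1.59, adjusted p = 0.00206, and -6.34 ± 1.63, adjusted p = 0.00282), but not with the animal as a random effect in limma-voom (-5.52, adjusted p = 0.107, and -5.72, adjusted p = 0.0746).

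On the upper side, Hcar2, the receptor of niacin and butyrate, had 381, 384 and 400 CPM in OSW-1 with LPS and 3.05, 2.44 and 3.14 CPM in OSW-1 alone (7.08 ± 0.62, adjusted p = 2.47e-10). It averaged 3.47 ± 2.58 CPM in untreated cells with LPS and 1.3 ± 0.427 CPM in untreated cells alone (difference 5.68 ± 0.90, adjusted p = 1.21e-05). Ahr, the aryl hydrocarbon receptor, had 125, 130 and 130 CPM in OSW-1 with LPS and 5.27, 4.93 and 6.05 CPM in OSW-1 alone (4.57 ± 0.28, adjusted p = 2.84e-13), and fell in untreated cells by 0.65 ± 0.27 (difference 5.21 ± 0.38, adjusted p = 8.27e-11). Both genes were low in 3 of these 4 groups and high in OSW-1 with LPS, where the mice lay close together. Both also rose with LPS after the other compounds, by less. Ahr rose by 3.06 ± 0.27 after itraconazole (difference 1.5 ± 0.36) and by 2.69 ± 0.27 after 25HC (difference 1.88 ± 0.37). Hcar2 rose by 3.99 ± 0.56 and 3.48 ± 0.57. Tox2, a nuclear factor, fell less in OSW-1 cells (-1.78 ± 0.36) than in untreated cells (-6.24 ± 0.49, difference 4.45 ± 0.63, adjusted p = 2.42e-06). Lad1, an anchoring filament protein, and Shisa3 were among the 12 largest increases and averaged 330 ± 13 CPM and 457 ± 46.3 CPM in OSW-1 with LPS and 0.0664 ± 0.0588 CPM and 0.0948 ± 0.0374 CPM in OSW-1 alone.

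**Figure D3:**
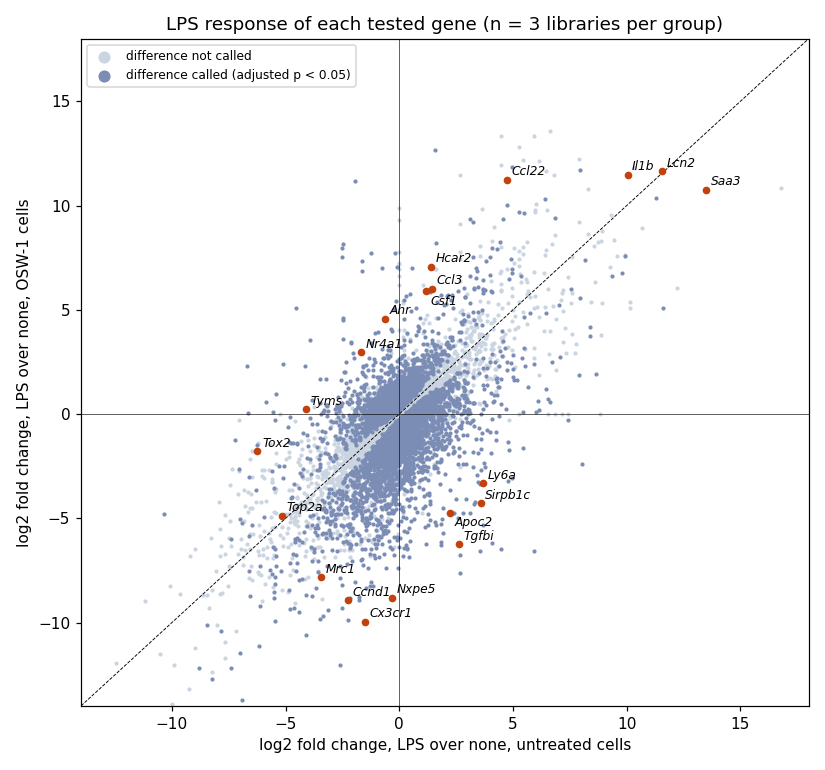
Log2 fold change of LPS over no LPS for each tested gene in untreated cells (x axis) and in OSW-1 cells (y axis), from 3 libraries per group; the dashed line marks equal responses. Ccl22 lies above the line (11.23 in OSW-1 cells, 4.72 in untreated cells), Lcn2 near it, and Tgfbi in the quadrant of opposite directions (-6.24 in OSW-1 cells, 2.63 in untreated cells).

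**Figure D4:**
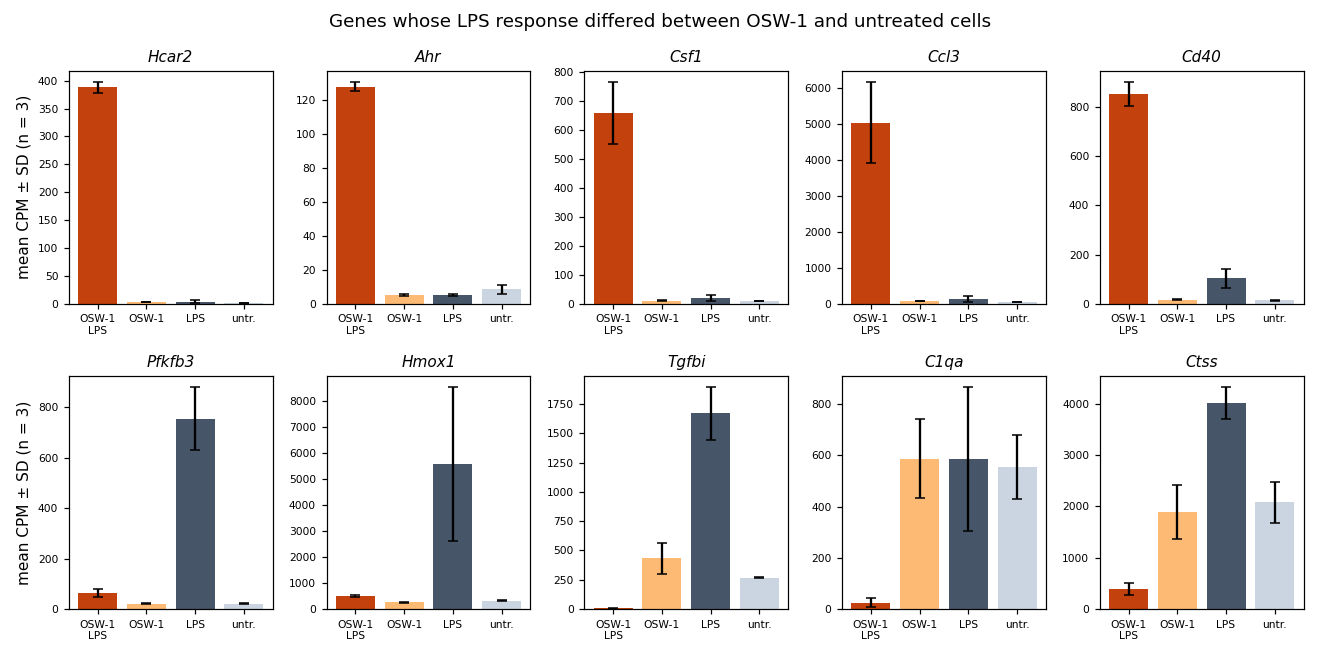
Mean CPM (bars) and SD (lines) of 10 genes in OSW-1 with LPS, OSW-1 alone, untreated cells with LPS and untreated cells alone, 3 libraries each, on linear axes that start at 0. Hcar2, Ahr, Csf1, Ccl3 and Cd40 are highest in OSW-1 with LPS (853 CPM for Cd40), Pfkfb3, Hmox1, Tgfbi and Ctss are highest in untreated cells with LPS (4010 CPM for Ctss), and C1qa is lowest in OSW-1 with LPS.

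The response after OSW-1 was also set against those after itraconazole and 25HC. The doses differ (0.3 µM OSW-1, 1 µM itraconazole and 5 µM 25HC), so the compounds were not compared at a matched dose. OSW-1 is a glycosylated steroid, itraconazole a triazole and 25HC an oxysterol. The OSW-1 response differed from the itraconazole response at 30.1% of genes and from the 25HC response at 43.9%. Ccl22 averaged 1430 ± 551 CPM in OSW-1 with LPS, 10.2 ± 2.87 CPM in itraconazole with LPS and 18.3 ± 9.41 CPM in 25HC with LPS. Its response differed by 7.39 ± 0.86 from itraconazole (adjusted p = 5.8e-07) and by 5.20 ± 1.17 from 25HC (adjusted p = 0.000824). Hcar2 averaged 388 ± 9.77 CPM in OSW-1 with LPS, 49.4 ± 37.6 CPM in itraconazole with LPS and 28.8 ± 18.3 CPM in 25HC with LPS, and differed by 3.09 ± 0.76 (adjusted p = 0.0032) and 3.60 ± 0.78 (adjusted p = 0.000607). The Ccl3 response was larger than after 25HC by 3.51 ± 0.51, and the Cd40 response larger than after itraconazole by 3.10 ± 0.38. Igfbp4, a binder of insulin-like growth factors, was at 0.42 ± 0.29 (adjusted p = 0.188) in OSW-1 cells and fell after itraconazole by 4.11 ± 0.33 and after 25HC by 3.33 ± 0.32.

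In the other direction, Tgfbi rose after itraconazole by 1.71 ± 0.41 and after 25HC by 2.72 ± 0.42, so that the OSW-1 response differed by -7.96 ± 0.64 and -8.96 ± 0.66. Gatm, an enzyme of creatine synthesis, had 4.57, 5.61 and 13.5 CPM in OSW-1 with LPS and 108, 167 and 234 CPM in OSW-1 alone (-4.41 ± 0.30, adjusted p = 1.44e-12), and rose after itraconazole by 1.23 ± 0.25 and after 25HC by 1.66 ± 0.26. Htr2b, a serotonin receptor, fell by 5.60 ± 0.47 in OSW-1 cells, with a difference of -5.68 ± 0.58 from 25HC. Lysosomal responses were lower than after itraconazole at 26 of 32 and lower than after 25HC at 26 (17.8% and 23.4% of all genes). Resident-type genes were lower at 18 and 19 of 23, and glycolysis genes at 16 and 16 of 22. Of the 40 interferon-stimulated genes, 4 had a larger and 2 a smaller response than after itraconazole (12.4% and 17.8% of all genes). Against 25HC, 2 had a larger and 5 a smaller response (20.5% and 23.4%).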

How the data were processed

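Polyadenylated RNA of cultured mouse macrophages was sequenced in 30 libraries, 3 in each of 10 groups. The deposited file holds raw counts per gene; per the submitters' processing notes, FastQC 0.11.9, GSNAP 2018-07-04, featureCounts of Subread 1.5.2 and edgeR 3.26.8 were used with GRCm38 (mm10). The role of each tool, the strand setting and the annotation release are not given in the sources used here, so overlapping, antisense and near-identical genes (such as the Gbp, Ifit and Bcl2a1 families) are uncertain. The table has 30538 genes, of which 11735 had no count and 13173 passed filterByExpr with a minimum count of 10. Libraries held 23656860 to 43922154 counts.

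Counts were fitted with edgeR 4.0.16 (R 4.3.3; TMM scaling, quasi-likelihood test, Benjamini-Hochberg adjustment over all genes tested, threshold 0.05) in 1 model of the 10 groups. CPM are counts scaled to a total of 1e6 by the TMM-scaled library size, and standard errors were taken as the size of the fitted log2 change over the root of F. The responses were compared by interaction contrasts. Promoters come from RefSeq (GRCm38.p6), and figures were drawn with matplotlib 3.10.9.

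The members and the gene lists were chosen with earlier results of these data known. Genes were named by a rule. For the OSW-1 response these were the 12 highest and 12 lowest called changes of at least 1 on the log2 scale, with a mean log2 CPM of at least 2 and groups that did not overlap. The separation of the groups at these genes was thus set by the rule and is not a result. For the difference from the untreated response they were the 8 highest and 8 lowest, and for the differences from the 25HC and itraconazole responses the 4 highest and 4 lowest. From each list the rule took up to 4 members by smallest p and up to 2 by the difference, and 30 genes were fixed whatever their result. List members named beside these were chosen after their values were seen. Some genes that these rules name are not reported here.

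The labels number the mouse, and each wild-type mouse gave a library to each wild-type group, so same-numbered samples share an animal. In the compared groups the deviations of same-numbered libraries correlated at 0.153, 0.0528 and 0.159. The fit with the mouse as a block was an alternative, as were DESeq2 1.42.0, DESeq2 size factors, limma 3.58.1 (voom), no filter, halved counts, the compared groups only and leaving out each library.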

Additional observations from a re-analysis of the deposited data

Results flagged for a closer look

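The results below were marked because the difference between responses to LPS was itself tested by an interaction contrast (edgeR quasi-likelihood test) and passed. The OSW-1 response differed from the untreated response at 6808 genes, from the 25HC response at 5784 and from the itraconazole response at 3968. The other responses were measured in libraries of the same 3 mice.

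Set against the untreated response, the largest called log2 differences on the upper side were Ccl22 at 6.51, Hcar2 at 5.68, Ahr at 5.21, Csf1 at 4.73, Nr4a1 at 4.64, Ccl3 at 4.57, Tox2 at 4.45 and Tyms at 4.34. On the lower side they were Tgfbi at -8.88, Nxpe5 at -8.50, Cx3cr1 at -8.43, Sirpb1c at -7.86, Sirpb1b at -7.05, Ly6a at -7.02, Apoc2 at -6.96 and Ccnd1 at -6.66. These are the genes with a mean log2 CPM of at least 2 over the 12 libraries.

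Set against the itraconazole response, the differences were Ccl22 at 7.39, Igfbp4 at 4.54, Cd40 at 3.10 and Hcar2 at 3.09 on the upper side, and Tgfbi at -7.96, Nxpe5 at -6.79, Sirpb1c at -6.13 and Gatm at -5.65 on the lower side. Set against the 25HC response, they were Ccl22 at 5.20, Igfbp4 at 3.75, Hcar2 at 3.60 and Ccl3 at 3.51 on the upper side, and Tgfbi at -8.96, Nxpe5 at -6.34, Gatm at -6.07 and Htr2b at -5.68 on the lower side. With the animal as a random effect in limma-voom, the Nxpe5 differences from itraconazole (-5.52, adjusted p = 0.107) and from 25HC (-5.72, adjusted p = 0.0746) were not called.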

How the results depend on the processing

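The count of genes called in the OSW-1 response was 9398, and 8893 to 9577 under the alternatives. It was 9550 with the mouse as a replicate block, 9499 by DESeq2, 9329 with halved counts and 8893 to 9119 when each library was left out. The count for the difference from the untreated response was 6808, and 7153 with the block. No alternative moved any of these gene counts by more than 1.5 times. Of 398 results of named genes, 54 gained or lost a call or turned under any setting, 38 of them under a setting other than leaving out a library. The 1 result that turned was Arg1, whose OSW-1 response was -1.32 without mouse 3 of OSW-1 with LPS and up to 2.74 without another library. With the block, the differences from the untreated response of Inhba (4.27), Cxcl3 (4.01) and Socs3 (-0.82) were not called, and those of Ppp1r15a (0.83), Tapbpl (0.38), Hmgcs1 (0.41) and Abca1 (-0.54) were. The cause was not tested. Counts of list members moved by more than 1.5 times in 81 values. Among these, the lower members of MHC class I loading numbered 2 and fell to 1 without mouse 3 of OSW-1 alone, mouse 1 of OSW-1 with LPS or mouse 2 of OSW-1 with LPS; those of NRF2 and iron numbered 2 and fell to 1 without mouse 1 of either group. The higher LXR targets numbered 2, with 1 when mouse 1 of OSW-1 with LPS was left out and 4 with the compared groups only, and the lower chemokines numbered 3, with 1 in the compared groups only. The time of harvest goes with LPS, and odd and even counting goes with it in the OSW-1 groups; neither can be told apart from it by these libraries. Genes with few reads without LPS have fold changes limited by depth.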
